A study of Mus musculus with 24 samples.

Results

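Smooth muscle and pericyte genes were followed across D4M tumours of mice given brequinar, anti-PD-1 antibody, both or neither. The set holds 10 genes, chosen by symbol as markers of the contractile and mural cells of blood vessels: Acta2, Tagln, Myh11, Cnn1, Myl9, Rgs5, Pdgfrb, Mcam, Cspg4 and Notch3. All 10 were found among the 55414 genes of the count table, and all 10 passed the filter on low counts. D4M is a mouse melanoma line, here grown as tumours in C57BL/6 wild-type hosts. Whole tumour tissue was sequenced, with 6 tumours per group and 1 library per tumour. The BRQ+PD-1 group received brequinar (BRQ) and anti-PD-1 antibody, and the BRQ+IgG2a group received brequinar and an IgG2a antibody. The PD-1 group received anti-PD-1 antibody alone, and the IgG2a group received the IgG2a antibody alone and was the control. The labels give intraperitoneal injection for every group and name no further agent; no source used here gives doses, days or host ages. Brequinar inhibits dihydroorotate dehydrogenase, an enzyme of pyrimidine synthesis, and anti-PD-1 antibody blocks an inhibitory receptor on T cells.

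Smooth muscle cells and pericytes wrap the endothelium of blood vessels, and smooth muscle cells contract when myosin, switched on by phosphorylation of its light chain, pulls on actin filaments. Pericytes are drawn to growing vessels by PDGF-B from endothelial cells, which acts on the receptor encoded by Pdgfrb, and Notch3 maintains both cell types. In tumours, activated fibroblasts also express Acta2, Tagln and Myl9, so none of these genes belongs to 1 cell type alone. Serum response factor switches on many contractile genes by binding a DNA element called the CArG box.

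Library totals ran from 19106205 to 34282319 counts, and 1 CPM (counts scaled to the TMM-adjusted library size) rested on 19.5 to 34.8 counts. In 4 libraries Acta1, the skeletal muscle actin, stood at 4070 to 14990 CPM, against at most 425 CPM in the other 20. These muscle-rich libraries were replicate 4 of BRQ+IgG2a, replicate 6 of PD-1, and replicates 2 and 3 of IgG2a, and none was in BRQ+PD-1. Results are therefore given with and without them. Summed over 15 skeletal muscle genes, the level was 12100 to 48500 CPM in the 4 muscle-rich libraries and 2.59 to 1480 CPM in the other 20. Of the melanocyte markers, Tyr and Dct had 0 counts in all 24 libraries and Mlana reached at most 0.178 CPM, while Mitf stood at 11.4 to 52.0 CPM. Endothelial Cdh5 at 70.2 to 161 CPM and fibroblast Col1a1 at 1682 to 5182 CPM were present in every tumour. The labels call the replicates biological without saying that each came from another animal, so the p-values measure the spread between these tumours. In whole tumours, fewer cells of a type and less RNA per cell cannot be told apart.

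The 250 bases upstream of the transcription start of Acta2 and Myl9 are shown because these 2 members were called lower in BRQ+PD-1 tumours. Those of Rgs5 are shown as a pericyte gene whose RNA was not called. Sequences are from the RefSeq table of build GRCm38.p6 and run 5′ to 3′ on the strand of the gene. Upstream sequences of 7 of the 10 members were used. Capitals mark matches to a CArG-type motif, searched on both strands as CCNNNNNNGG with at most 1 G or C among the 6 central bases. The windows are chr19:34255374-34255623 on the minus strand for Acta2, chr2:156775214-156775463 on the plus strand for Myl9, and chr1:169655251-169655500 on the plus strand for Rgs5.

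Acta2: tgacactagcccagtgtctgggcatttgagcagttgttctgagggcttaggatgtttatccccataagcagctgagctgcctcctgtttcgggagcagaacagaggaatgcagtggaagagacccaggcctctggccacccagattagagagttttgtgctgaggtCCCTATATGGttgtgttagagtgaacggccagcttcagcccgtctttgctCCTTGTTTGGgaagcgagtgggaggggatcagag

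Myl9: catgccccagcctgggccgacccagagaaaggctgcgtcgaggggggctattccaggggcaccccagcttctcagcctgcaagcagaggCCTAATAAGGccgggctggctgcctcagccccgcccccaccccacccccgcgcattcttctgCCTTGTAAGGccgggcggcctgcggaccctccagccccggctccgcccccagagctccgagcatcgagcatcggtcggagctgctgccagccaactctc

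Rgs5: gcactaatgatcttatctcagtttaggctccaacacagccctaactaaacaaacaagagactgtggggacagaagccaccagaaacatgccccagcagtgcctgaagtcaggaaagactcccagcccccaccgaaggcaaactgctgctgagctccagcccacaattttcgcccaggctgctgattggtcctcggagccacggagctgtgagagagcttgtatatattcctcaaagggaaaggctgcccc

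The Acta2 window held CCCTATATGG and CCTTGTTTGG, whose first bases lay at -84 and -34 from the start. The Myl9 window held CCTAATAAGG at -161 and CCTTGTAAGG at -99. No match lay in the Rgs5, Cnn1, Mcam, Cspg4 or Notch3 windows. Those of Tagln, Myh11 and Pdgfrb were not searched, so nothing is said about them. Among the 32851 upstream windows searched, 2823 (8.59%) held at least 1 match and 220 (0.67%) held 2 or more. A match describes the letters only and is no evidence of binding.

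The 10 genes spanned a wide range of levels. Per kilobase of exon, the median over the 24 tumours was 73.2 CPM for Acta2 (range 18.5 to 209.8) and 64.5 CPM for Pdgfrb (38.3 to 88.5). Mcam followed at 28.0 CPM per kilobase, then Myl9 at 13.8, Cspg4 at 9.87, Rgs5 at 8.13 and Notch3 at 1.06. The lowest were 3 contractile genes, with medians per kilobase of 0.203 CPM for Myh11, 0.175 CPM for Tagln and 0.0560 CPM for Cnn1. The ranges of neighbours in this order overlapped, except that every tumour had more Rgs5 (at least 4.37) than the highest Notch3 level (2.92).

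**Figure D1:**
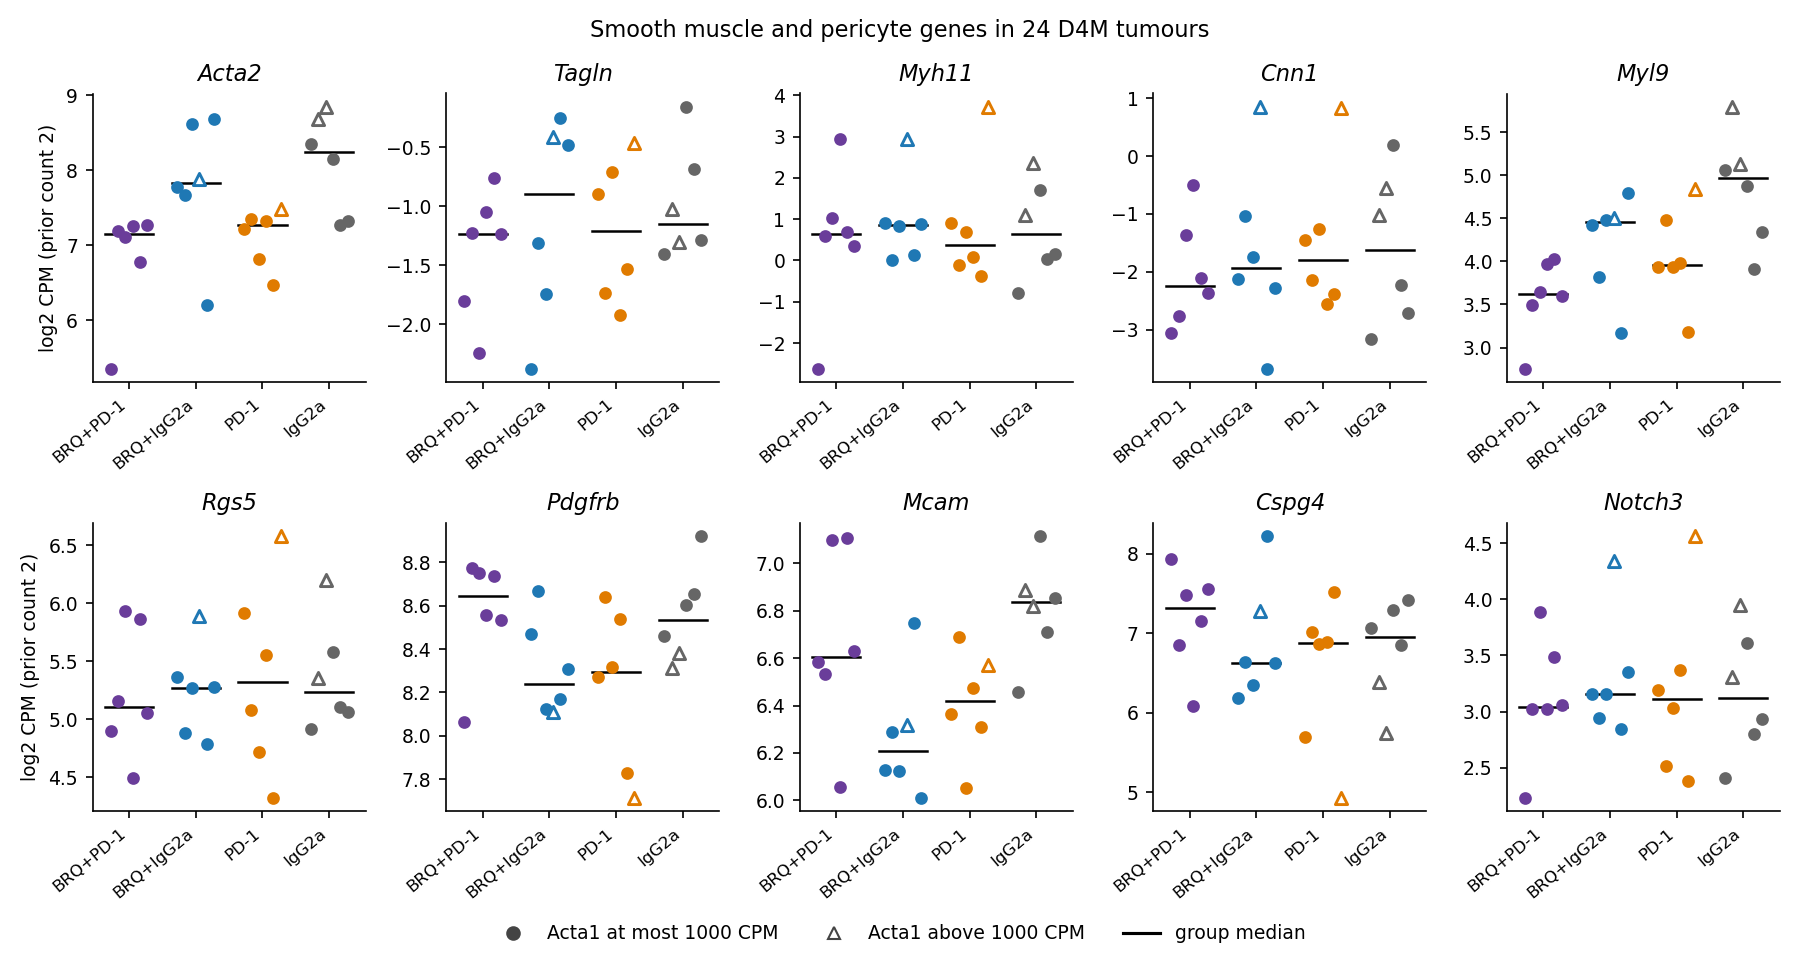
Level of each of the 10 genes per tumour, as log2 CPM with a prior count of 2, by treatment group. Each point is 1 tumour, open triangles are the 4 muscle-rich libraries and lines are group medians; the 6 BRQ+PD-1 tumours lie between 40.7 and 154 CPM for Acta2.

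The 2 members called were the contractile genes Acta2 and Myl9, lower in tumours given both agents than in IgG2a tumours. Neither call stood without the 4 muscle-rich libraries. With anti-PD-1 alone Acta2 had a log2 fold change of -1.08, which was not called. Acta2, which encodes smooth muscle alpha-actin, had a lowest, median and highest level of 40.7, 142 and 154 CPM in BRQ+PD-1 tumours. The same 3 values were 73.5, 228 and 411 CPM in BRQ+IgG2a tumours, 88.4, 155 and 179 CPM in PD-1 tumours, and 155, 305 and 461 CPM in IgG2a tumours. No BRQ+PD-1 tumour reached the lowest IgG2a tumour, while the BRQ+IgG2a and IgG2a tumours overlapped over most of their range. Means were 123 ± 43.6 CPM in BRQ+PD-1 tumours and 299 ± 126 CPM in IgG2a tumours (SD, n = 6 each).

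Myl9 encodes the regulatory light chain of smooth muscle and non-muscle myosin. It stood at 6.65, 12.2 and 16.3 CPM (lowest, median and highest) in BRQ+PD-1 tumours and at 8.88, 21.9 and 27.7 CPM in BRQ+IgG2a tumours. PD-1 tumours had 9.01, 15.5 and 28.6 CPM, and IgG2a tumours had 14.99, 31.3 and 55.5 CPM. The BRQ+PD-1 and IgG2a tumours overlapped only between 14.99 and 16.3 CPM. Means were 12.4 ± 3.47 CPM in BRQ+PD-1 tumours and 31.4 ± 14.1 CPM in IgG2a tumours (SD, n = 6 each).

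For both agents against the control, 2 of the 10 members were called by edgeR's quasi-likelihood test at a Benjamini-Hochberg adjusted p under 0.05, both lower. In the same comparison 3.91% of all 16029 genes tested were called, and 1.43% of all genes tested were called lower. Acta2 changed by a log2 fold of -1.28 ± 0.36 (SE, adjusted p = 0.0490 by edgeR), and 6 of 6 BRQ+PD-1 tumours were below the IgG2a mean. That of Myl9 was -1.34 ± 0.31 (SE, adjusted p = 0.0189 by edgeR), again with 6 of 6 tumours below. The median log2 fold change was -0.11 over the 10 members and 0.01 over all genes tested, and 7 members had negative and 3 positive values.

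Neither call stood without the 4 muscle-rich libraries, when 2.5% of 16179 genes were called. Fold changes of BRQ+PD-1 against IgG2a on the log2 scale were then -0.92 ± 0.39 for Acta2 (edgeR adjusted p = 0.241) and -1.001 ± 0.30 for Myl9 (edgeR adjusted p = 0.0823). Median levels in the muscle-rich libraries were higher than in the other 20 for both genes, at 323 and 154 CPM for Acta2 and 31.8 and 15.4 CPM for Myl9. These medians mix treatment groups, since no muscle-rich library was in BRQ+PD-1. Within groups, muscle-rich tumours had the highest Acta2 in IgG2a (410 and 461 CPM) and in PD-1 (179 CPM). In BRQ+IgG2a the muscle-rich tumour had 236 CPM of Acta2 and 22.5 CPM of Myl9, below the highest tumour at 411 and 27.7 CPM. The part of skeletal muscle tissue in these differences was not tested. The Acta2 call also lay close to the threshold. It was kept in the fits without replicate 5 or replicate 6 of IgG2a. In the other 10 of 12 fits that left out 1 tumour it was lost (edgeR adjusted p = 0.0374 to 0.122 over the 12). The log2 fold change of Acta2 stayed between -1.41 and -1.1 in the 12 fits. Myl9 was called in 12 of 12 such fits (edgeR adjusted p = 0.0136 to 0.0449).

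**Figure D2:**
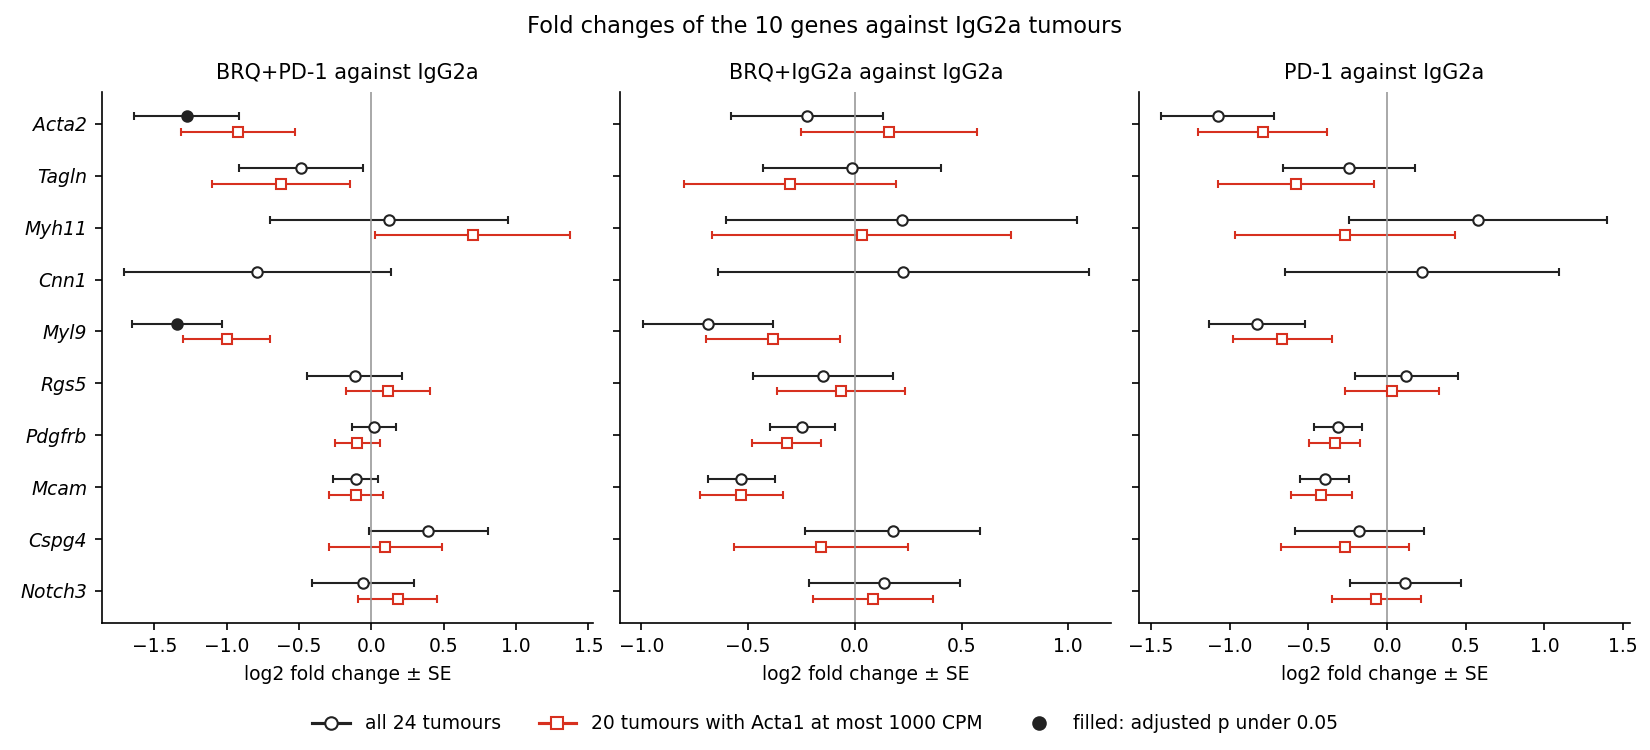
Log2 fold change with its SE for the 10 genes in BRQ+PD-1, BRQ+IgG2a and PD-1 tumours, each against IgG2a tumours. Black circles are the fit on all 24 tumours, red squares the fit without the 4 muscle-rich libraries and filled symbols an adjusted p under 0.05 in edgeR's quasi-likelihood test; Acta2 at -1.28 and Myl9 at -1.34 in BRQ+PD-1 tumours are the filled ones, and Cnn1 has no red square because it did not pass the filter there.

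With single agents no member was called, and the 3 comparisons with IgG2a share the same 6 control tumours. Anti-PD-1 alone gave log2 fold changes of -1.08 ± 0.36 for Acta2 (SE, edgeR adjusted p = 0.50) and -0.83 ± 0.31 for Myl9 (SE, edgeR adjusted p = 0.557). In that comparison 0 of the 10 members and 0.0187% of all genes were called, and 0 members and 0.0124% of genes without the muscle-rich libraries. Brequinar alone gave -0.69 ± 0.31 for Myl9 (SE, edgeR adjusted p = 0.283), and -0.38 without the muscle-rich libraries. Its value for Acta2 was -0.23 ± 0.36 (SE, edgeR adjusted p = 0.838), which turned to 0.16 without the muscle-rich libraries. Here 0 of the 10 members were called beside 3.46% of all genes, and 0 of 9 tested beside 4.06% without the muscle-rich libraries.

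Acta2 had its lower levels in both groups given anti-PD-1. Averaged over both brequinar states, the 12 tumours given anti-PD-1 had 40.7, 147 and 179 CPM as their lowest, median and highest level. The 12 tumours given the control antibody had 73.5, 259 and 461 CPM. Means were 133 ± 38.7 CPM in anti-PD-1 tumours and 278 ± 123 CPM in control-antibody tumours (SD, n = 12 each). On the log2 scale this contrast, added after the values had been seen, was -1.06 ± 0.25 (SE, unadjusted p = 0.000382), and it was -0.94 ± 0.28 without the muscle-rich libraries.

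After adjustment over all genes the contrast was not called in edgeR (adjusted p = 0.351), while DESeq2 (adjusted p = 0.0239) and limma voom (adjusted p = 0.0422) called Acta2. Over all genes edgeR called 0 genes (0.0%) for the antibodies, with 1229 at an unadjusted p under 0.05, against 16 by DESeq2 and 66 by voom. Without the muscle-rich libraries edgeR called 1 gene (0.00618%), which was no member. Myl9 had a log2 fold change of -0.74 ± 0.22 in the same contrast (SE, edgeR adjusted p = 0.646). For brequinar averaged over both antibodies, Acta2 had -0.21 ± 0.25 (SE), which became 0.013 without the muscle-rich libraries. Myl9 averaged 15.9 ± 6.34 CPM in brequinar tumours and 24.5 ± 12.8 CPM in tumours without brequinar (SD, n = 12 each). Its contrast for brequinar was -0.60 ± 0.22 on the log2 scale (SE, edgeR adjusted p = 0.0698), and -0.36 without the muscle-rich libraries (edgeR adjusted p = 0.317). In that comparison 0 of the 10 members were called beside 12.5% of all genes, and 0 of 9 beside 10.1% without the muscle-rich libraries.

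The other 3 contractile genes had low measured levels and varied more within groups than between them. Myh11, the smooth muscle myosin heavy chain, had 0.0837, 1.49 and 7.65 CPM (lowest, median and highest) in BRQ+PD-1 tumours and 0.937, 1.75 and 7.56 CPM in BRQ+IgG2a tumours. PD-1 tumours had 0.688, 1.26 and 13.2 CPM, and IgG2a tumours 0.501, 1.56 and 5.09 CPM, so all 4 groups overlapped. Its log2 fold change of BRQ+PD-1 against IgG2a was 0.12 ± 0.82 (SE), and it was 0.70 without the muscle-rich libraries and negative, at -0.16, with the replicate number as a block. In the muscle-rich libraries the median was 6.32 CPM, against 1.31 CPM in the other 20.

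Cnn1 encodes calponin, which binds actin and slows the myosin ATPase in smooth muscle. It reached 0.626 CPM in BRQ+PD-1 tumours, 1.73 in BRQ+IgG2a tumours, 1.71 in PD-1 tumours and 1.07 in IgG2a tumours. Replicate 5 of BRQ+IgG2a had 0 counts, which allows up to 0.152 CPM (3 counts, counting error only). The median was 1.16 CPM in the 4 muscle-rich libraries and 0.142 CPM in the other 20, where the gene no longer passed the filter on low counts.

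Tagln, the actin-binding protein transgelin, rested on 3 to 23 counts per library. Its median was 0.348 CPM in BRQ+PD-1 tumours, 0.481 CPM in BRQ+IgG2a tumours, 0.364 CPM in PD-1 tumours and 0.374 CPM in IgG2a tumours. Genes on the other strand cover 67.86% of its exon bases in the annotation, and no source used here gives the strand setting of the counting, so the level of Tagln is uncertain.

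Among the pericyte genes, Rgs5 and Notch3 showed no called difference between groups. Rgs5, which shortens signalling by G-protein-coupled receptors and marks pericytes, had a median of 34.3 CPM in BRQ+PD-1 tumours (range 22.4 to 60.9). Its medians were 38.5 CPM in BRQ+IgG2a tumours (27.5 to 59.2), 40.4 CPM in PD-1 tumours (19.9 to 95.7) and 37.6 CPM in IgG2a tumours (30.1 to 73.5). BRQ+PD-1 gave a log2 fold change of -0.12 ± 0.33 against IgG2a, which turned to 0.12 without the muscle-rich libraries. Against PD-1 it was -0.24 ± 0.33 (SE), which turned to 0.087 without them.

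Notch3, the Notch receptor of mural cells, had a median of 8.16 CPM in BRQ+PD-1 tumours (range 4.60 to 14.7) and 8.84 CPM in BRQ+IgG2a tumours (7.11 to 20.2). PD-1 tumours had a median of 8.59 CPM (5.12 to 23.6), and IgG2a tumours had 8.70 CPM (5.24 to 15.3). The 4 groups overlapped almost fully. The log2 fold change of BRQ+PD-1 against IgG2a was -0.06 ± 0.35 (SE), and it was 0.18 without the muscle-rich libraries, in which the median was 17.8 CPM against 8.09 CPM in the other 20.

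Pdgfrb, the receptor for PDGF-B, had close means in tumours given both agents and in controls. It averaged 385 ± 64.2 CPM in BRQ+PD-1 tumours, 320 ± 51.7 CPM in BRQ+IgG2a tumours, 306 ± 75.6 CPM in PD-1 tumours and 380 ± 60.6 CPM in IgG2a tumours (SD, n = 6 each). The lowest and highest tumours were 268 and 437 CPM in BRQ+PD-1, 276 and 407 CPM in BRQ+IgG2a, 210 and 399 CPM in PD-1, and 318 and 485 CPM in IgG2a. All groups overlapped, and the single-agent groups had the lower means. The log2 fold change was -0.25 ± 0.15 for brequinar alone (SE, edgeR adjusted p = 0.488) and -0.31 ± 0.15 for anti-PD-1 alone (SE, edgeR adjusted p = 0.765).

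Mcam, a cell adhesion molecule of mural, endothelial and melanoma cells, likewise had its lower means in the single-agent groups. Its lowest, median and highest levels were 66.4, 97.4 and 138 CPM in BRQ+PD-1 tumours and 64.3, 74.0 and 107 CPM in BRQ+IgG2a tumours. PD-1 tumours had 66.2, 85.5 and 103 CPM, and IgG2a tumours 87.8, 114 and 138 CPM. In BRQ+IgG2a, 6 of 6 tumours were below the IgG2a mean, and the highest of them overlapped with the lower IgG2a tumours. Brequinar alone gave a log2 fold change of -0.53 ± 0.16 (SE, adjusted p = 0.0598 by edgeR's quasi-likelihood test), just outside the threshold. It passed with DESeq2 (adjusted p = 0.0222), with limma voom (adjusted p = 0.00828), with library totals as the only scaling (edgeR adjusted p = 0.0436) and with Acta1 as a covariate (edgeR adjusted p = 0.0481). Leaving out replicate 5 of BRQ+IgG2a gave an edgeR adjusted p of 0.0100, and leaving out replicate 1 of IgG2a gave 0.0462, while without the muscle-rich libraries the value was again -0.53 (edgeR adjusted p = 0.163). Anti-PD-1 alone gave -0.40 ± 0.16 (SE, edgeR adjusted p = 0.621) and both agents gave -0.11 ± 0.15 (SE, edgeR adjusted p = 0.714).

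The interaction contrast asks whether brequinar acted differently beside anti-PD-1 than beside the control antibody. It was 0.82 ± 0.22 for Mcam on the log2 scale (SE, unadjusted p = 0.00106, edgeR adjusted p = 0.387) and 0.84 without the muscle-rich libraries. For Pdgfrb it was 0.58 ± 0.22 (SE, unadjusted p = 0.0130, edgeR adjusted p = 0.568). None of the 10 members passed in edgeR, and voom called 1, Mcam. Over all genes edgeR called 0 (0.0%) in this contrast, with 1222 at an unadjusted p under 0.05, against 13 by DESeq2 and 272 by voom. Without the muscle-rich libraries edgeR called 1 gene (0.00618%), which was no member.

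Cspg4 encodes the proteoglycan NG2, a surface marker of pericytes that melanoma cells also carry. Its lowest, median and highest levels were 68.0, 160 and 244 CPM in BRQ+PD-1 tumours and 72.6, 99.1 and 299 CPM in BRQ+IgG2a tumours. PD-1 tumours had 30.4, 118 and 184 CPM, and IgG2a tumours 53.5, 124 and 171 CPM, so the groups overlapped. The log2 fold change of BRQ+PD-1 was 0.39 ± 0.41 against IgG2a, which became -0.018 with Acta1 as a covariate and 0.096 without the muscle-rich libraries. Against PD-1 it was 0.57 ± 0.41 (SE), and 0.37 without the muscle-rich libraries. Cspg4 had a median of 68.7 CPM over the 4 muscle-rich libraries (range 30.35 to 155.5) and 124 CPM over the other 20. The muscle-rich replicate 4 of BRQ+IgG2a, at 155.5 CPM, lay above the second of these medians. Pdgfrb was likewise lower by median, at 297 and 371 CPM, while Acta2, Myl9, Myh11, Cnn1, Rgs5 and Notch3 were higher. Treatment groups are mixed in such medians, and BRQ+PD-1 held no muscle-rich tumour.

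No member was called by edgeR when one agent was added to the other. For BRQ+PD-1 against PD-1, 0 of the 10 members were called beside 5.04% of all genes, and 0 of 9 beside 3.1% without the muscle-rich libraries. The members' median log2 fold change was -0.22, with 7 negative and 3 positive, and 0.23 without the muscle-rich libraries. Pdgfrb had 0.33 ± 0.15 (SE, edgeR adjusted p = 0.207) and Mcam 0.29 ± 0.16 (SE, edgeR adjusted p = 0.287), and voom called Mcam. For BRQ+PD-1 against BRQ+IgG2a, 0 members and 0 of all genes (0.0%) were called by edgeR, with 1168 genes at an unadjusted p under 0.05, against 4 by DESeq2 and 620 by voom. It was 0 of 9 members and 0.0% of genes without the muscle-rich libraries. Acta2 had -1.05 ± 0.36 (SE, unadjusted p = 0.00782), Myl9 -0.66 ± 0.31 (SE) and Mcam 0.42 ± 0.16 (SE), each with an edgeR adjusted p of 0.665, and voom called Acta2 and Mcam.

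The members did not vary as one block across tumours. Pearson correlations of log2 CPM are given as descriptions over the 24 tumours, which share library depth, treatment and muscle content, with the value over the 20 tumours without high Acta1 after them. Acta2 and Myl9 correlated at 0.875 and 0.876, and Rgs5 and Notch3 at 0.846 and 0.733. Myh11 and Notch3 had 0.837 and 0.675, and Myh11 and Cnn1 had 0.826 and 0.679. Cspg4 ran the other way, at -0.515 and -0.541 with Acta2 and at -0.628 and -0.535 with Myh11.

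**Figure D3:**
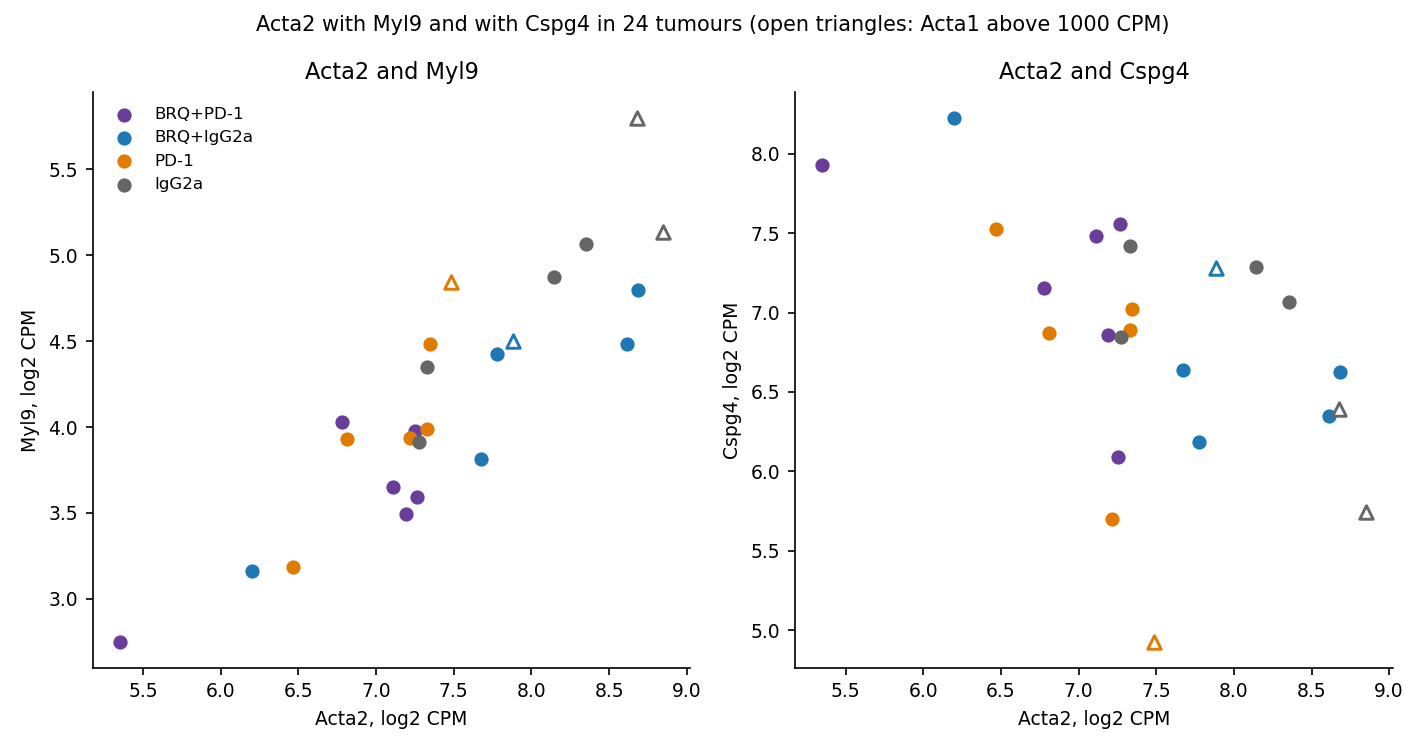
Acta2 against Myl9 and against Cspg4 in each of the 24 tumours, as log2 CPM with a prior count of 2, by group, with open triangles for the muscle-rich libraries. Acta2 and Myl9 rise together (Pearson 0.875), while Acta2 and Cspg4 run in opposite directions (-0.515).

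Single tumours showed this opposition. Replicate 1 of BRQ+PD-1 had the lowest Acta2 of all tumours, at 40.7 CPM, and the highest Cspg4 of its group, at 244 CPM. Replicate 5 of BRQ+IgG2a had the highest Cspg4 of all, at 299 CPM, with the lowest Acta2 of its group, at 73.5 CPM.

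**Figure D4:**
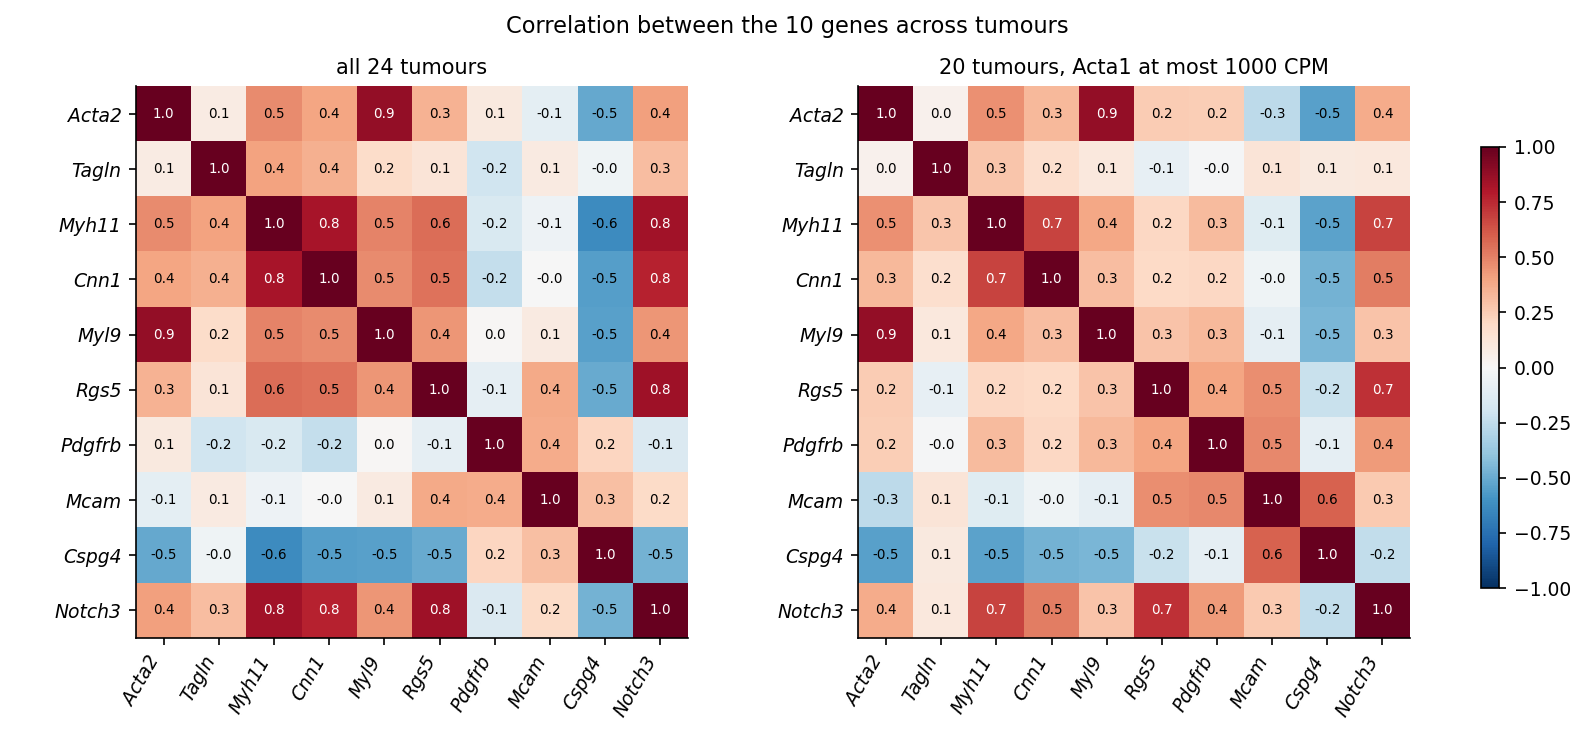
Pearson correlation of log2 CPM between the 10 genes over all 24 tumours (left) and over the 20 tumours without high Acta1 (right), with colour running from -1 to 1. Acta2 with Myl9 stays at 0.876 in the right panel, while Rgs5 with Myh11 is 0.561 on the left and 0.208 on the right.

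Among 12558 named genes at a mean of at least 1 CPM, the gene most like Acta2 over 24 tumours was Prss23 (0.877), followed by Myl9 (0.875) and Det1 (0.867). Over the 20 tumours the order was Tubb3 (0.901), Prss23 (0.882) and Myl9 (0.876). The genes most like Cspg4 were P3h2 (0.949), Timp2 (0.943) and Fmnl3 (0.926), and over the 20 tumours P3h2 (0.943), Inpp5a (0.93) and Timp2 (0.906). Notch3 was closest to Igfbp7 (0.876), Cygb (0.848) and Rgs5 (0.846), while Rgs5 was closest to Notch3 (0.846), Vstm4 (0.798) and Pdzd2 (0.768). Pdgfrb was closest to Lum (0.849), Csdc2 (0.837) and Nhs (0.822), and Mcam to Ubald1 (0.806), Pcdh12 (0.76) and Camk2n1 (0.741). Myl9 was nearest to Acta2 (0.875), Mrps17 (0.858) and Ndufb7 (0.846), Myh11 to Cygb (0.865), Susd2 (0.847) and Notch3 (0.837), and Cnn1 to Myh11 (0.826), Gja4 (0.819) and Susd2 (0.817). No gene exceeded 0.622 (Rmdn2) with Tagln.

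Several of these neighbours were others over the 20 tumours without high Acta1. There the 3 genes closest to Myh11 were Abhd17a (0.871), Klhl36 (0.775) and Btla (0.765), with none of its 3 over 24 tumours. Cnn1 was closest to Prr36 (0.789), Ubac2 (0.747) and Myh11 (0.679), and Notch3 to Sh2d3c (0.807), Tnip1 (0.755) and Igfbp7 (0.75). Rgs5 kept Notch3 (0.733), followed by Art3 (0.698) and Rgs4 (0.678), and Myl9 kept Acta2 (0.876), followed by Nt5m (0.822) and Cnn2 (0.819). Pdgfrb was closest to Csdc2 (0.881), Spef1 (0.837) and Lum (0.826), Mcam to Camk2n1 (0.851), Plvap (0.837) and Ubald1 (0.814), and Tagln to Cep44 (0.666), Suds3 (0.658) and Cox17 (0.651).

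Other genes listed for smooth muscle were called in both directions under brequinar. Of 20 further smooth muscle genes 19 were tested. The 20 summed to 4110 to 9660 CPM in the 4 muscle-rich libraries and to 1470 to 1880 CPM in the other 20 libraries. The part of skeletal muscle tissue in the values of this list was not tested. For BRQ+PD-1 against IgG2a, beside 3.91% of all genes, 1 was called higher (Itga8) and 1 lower (Actg2), with a median log2 fold change of -1.05 that became 0.14 without the muscle-rich libraries. Brequinar averaged over both antibodies gave 2 higher (Itga8, Mylk) and 1 lower (Actg2) of 19, a share near the 12.5% of all genes called there. Without the muscle-rich libraries the Actg2 call was lost in that contrast (edgeR adjusted p = 0.0519), and Tpm1, a tropomyosin, was the gene called lower. For brequinar over both antibodies the list's median was -0.52, and 0.25 without the muscle-rich libraries. Anti-PD-1 alone gave 0 called of 19, beside 0.0187% of all genes.

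Itga8 encodes an integrin subunit of smooth muscle and mesangial cells. It had 4.77, 8.10 and 10.7 CPM (lowest, median and highest) in BRQ+PD-1 tumours, 4.06, 7.07 and 9.28 CPM in BRQ+IgG2a tumours, 2.01, 2.89 and 3.78 CPM in PD-1 tumours, and 1.54, 2.79 and 3.52 CPM in IgG2a tumours. Every brequinar tumour was above every tumour without brequinar. The log2 fold change of brequinar over both antibodies was 1.36 ± 0.18 (SE, edgeR adjusted p = 6.3e-05). It was 1.51 ± 0.25 for BRQ+PD-1 against IgG2a (SE, edgeR adjusted p = 0.00217) and 1.32 ± 0.25 for BRQ+IgG2a against IgG2a (SE, edgeR adjusted p = 0.00395), and these calls held without the muscle-rich libraries.

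Mylk, the kinase that phosphorylates the myosin light chain encoded by Myl9, averaged 56.1 ± 21.2 CPM in BRQ+PD-1 tumours and 20.2 ± 7.46 CPM in PD-1 tumours (SD, n = 6 each). On the log2 scale this was 1.47 ± 0.35 (SE, edgeR adjusted p = 0.0179), while Myl9 was not called in the same comparison. Actg2, the gamma-actin of visceral smooth muscle, averaged 1.70 ± 0.754 CPM in BRQ+PD-1 tumours and 9.49 ± 10.03 CPM in IgG2a tumours (SD, n = 6 each). Its log2 fold change was -2.47 ± 0.59 (SE, edgeR adjusted p = 0.0220). Without the muscle-rich libraries it was -1.70 (edgeR adjusted p = 0.0561), and without replicate 3 of IgG2a, the tumour at 29.4 CPM, also -1.70 (edgeR adjusted p = 0.0831). The Actg2 call was also lost without replicate 3 of BRQ+PD-1 (edgeR adjusted p = 0.0560).

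Of 18 further pericyte genes, all tested, 3 were called higher with brequinar over both antibodies (Tbx2, P2ry14, Anpep) and 0 lower, beside 6.91% of all genes called higher. The list's median log2 fold change was 0.27, against 0.01 over all genes tested. Tbx2, a T-box transcription factor, had 2.22, 10.2 and 13.3 CPM (lowest, median and highest) in BRQ+PD-1 tumours and 6.19, 10.2 and 11.2 CPM in BRQ+IgG2a tumours. PD-1 tumours had 2.90, 3.55 and 4.46 CPM, and IgG2a tumours 3.04, 3.89 and 4.71 CPM. One BRQ+PD-1 tumour was below all of these, and the other brequinar tumours were above them. The log2 fold change of brequinar over both antibodies was 1.31 ± 0.19 for Tbx2 (SE, edgeR adjusted p = 0.000119).

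P2ry14, a receptor for UDP-sugars, averaged 6.22 ± 1.02 CPM in BRQ+PD-1 tumours, 6.73 ± 2.47 CPM in BRQ+IgG2a tumours, 3.92 ± 1.37 CPM in PD-1 tumours and 2.50 ± 1.03 CPM in IgG2a tumours (SD, n = 6 each). Against IgG2a the log2 fold change was 1.31 ± 0.28 for BRQ+PD-1 (SE, edgeR adjusted p = 0.0102) and 1.43 ± 0.28 for BRQ+IgG2a (SE, edgeR adjusted p = 0.00462). Anpep, aminopeptidase N, had 0.56 ± 0.15 with brequinar over both antibodies (SE, edgeR adjusted p = 0.0171). The same 3 pericyte genes were called without the muscle-rich libraries. Summed levels of 12 endothelial genes were 336 to 539 CPM in BRQ+PD-1, 324 to 633 in BRQ+IgG2a, 319 to 533 in PD-1 and 297 to 564 in IgG2a tumours. In the 8 comparisons on all 24 tumours 0 of 12 were called, beside 0.0% to 12.5% of all genes. BRQ+PD-1 against BRQ+IgG2a, the interaction and the antibody contrast called 0 genes of any kind. Without the muscle-rich libraries Pecam1 was called higher with brequinar over both antibodies, beside 10.1% of all genes called in either direction.

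**Figure D5:**
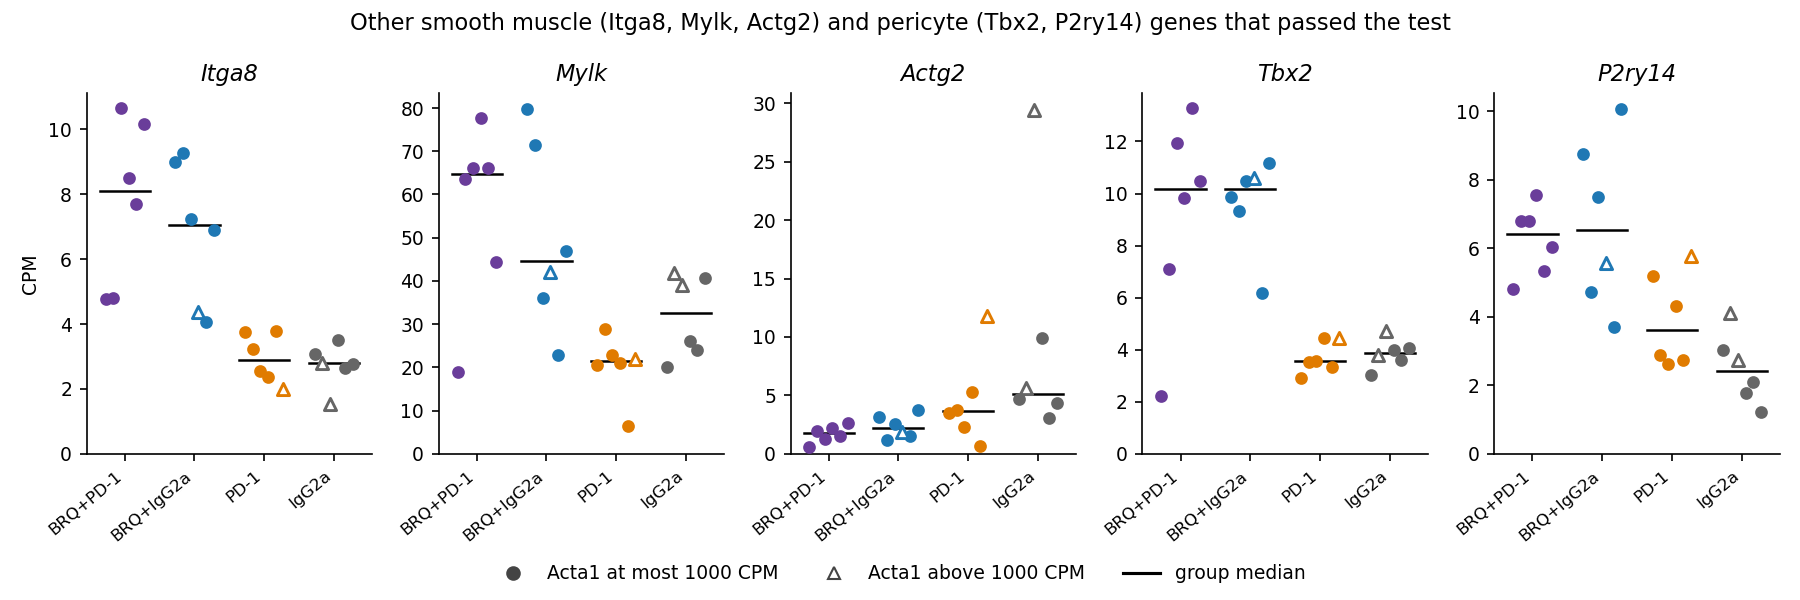
CPM per tumour of Itga8, Mylk, Actg2, Tbx2 and P2ry14 by group, with open triangles for the muscle-rich libraries and lines at the group medians. Itga8 lies at 4.06 to 10.7 CPM in the 12 brequinar tumours and at 1.54 to 3.78 CPM in the 12 without, while Actg2 reaches 29.4 CPM in 1 muscle-rich IgG2a tumour.

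Lists of regulators held a few called genes. Over all genes, 3.91% were called for BRQ+PD-1 against IgG2a and 12.5% for brequinar over both antibodies. Of the serum response factor list, 4 of 7 genes were tested and Srf itself was lower, averaging 76.7 ± 7.55 CPM in BRQ+PD-1 tumours and 95.0 ± 11.5 CPM in IgG2a tumours (SD, n = 6 each). Its log2 fold change was -0.31 ± 0.09 (SE, edgeR adjusted p = 0.0469), and -0.22 without the muscle-rich libraries (edgeR adjusted p = 0.184). The Srf call was kept in 3 of 12 fits that left out 1 tumour, those without replicate 5 or 6 of IgG2a or replicate 4 of BRQ+PD-1. Brequinar over both antibodies gave -0.23 ± 0.06 (SE, edgeR adjusted p = 0.0168), and -0.15 without the muscle-rich libraries (edgeR adjusted p = 0.102).

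Of 16 PDGF, Notch and angiopoietin genes 15 were tested. Over all genes, 5.04% were called for BRQ+PD-1 against PD-1 and 3.91% for BRQ+PD-1 against IgG2a. For brequinar over both antibodies without the muscle-rich libraries it was 10.1%. Pdgfc, a ligand of PDGF receptor alpha, was the gene called, higher in BRQ+PD-1 than in PD-1 tumours by 0.93 ± 0.21 on the log2 scale (SE, edgeR adjusted p = 0.0133). It averaged 103.6 ± 24.9 CPM in BRQ+PD-1 tumours and 54.2 ± 17.9 CPM in PD-1 tumours (SD, n = 6 each). Pdgfb, which encodes the ligand of the Pdgfrb receptor, was called higher with brequinar over both antibodies without the muscle-rich libraries and not on all 24 tumours. Of 8 TGF-beta ligands and receptors, the type I receptor Tgfbr1 was called higher in BRQ+PD-1 tumours, at 127 ± 25.7 CPM, than in IgG2a tumours, at 84.4 ± 12.3 CPM (SD, n = 6 each). This was 0.59 ± 0.13 on the log2 scale (SE, edgeR adjusted p = 0.0105), and 0.46 without the muscle-rich libraries (edgeR adjusted p = 0.0653). Eng, endoglin, a co-receptor of TGF-beta, was called higher in BRQ+PD-1 than in PD-1 tumours, by 0.32 ± 0.08 on the log2 scale (SE, edgeR adjusted p = 0.0238). That call was lost without the muscle-rich libraries (edgeR adjusted p = 0.0745) and in 4 of 12 fits that left out 1 tumour, those without replicate 6 of PD-1 or replicates 3, 5 or 6 of BRQ+PD-1. Acvrl1, an endothelial type I receptor, was called higher with brequinar over both antibodies without the muscle-rich libraries and not on all 24 tumours.

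Markers of other cells moved with some of these results. None of 14 skeletal muscle genes tested was called against IgG2a, beside 3.91% of all genes for BRQ+PD-1, 3.46% for BRQ+IgG2a and 0.0187% for PD-1. Their median log2 fold changes were nevertheless -6.03 for BRQ+PD-1, -1.82 for BRQ+IgG2a and -2.49 for PD-1, each against IgG2a. Without the muscle-rich libraries these medians were 0.80 for BRQ+PD-1, 1.63 for BRQ+IgG2a and 0.70 for PD-1. The 12 fibroblast genes, which mark cells that can also express Acta2, summed to 6810 to 11900 CPM in BRQ+PD-1, 7160 to 14700 in BRQ+IgG2a, 8700 to 15100 in PD-1 and 9900 to 12600 in IgG2a tumours, with 0 of 12 called. Their part in the level of Acta2 was not tested. The most abundant genes of these lists were Acta1 and Myh4 for skeletal muscle and Col3a1 and Col1a1 for fibroblasts, and for the endothelium they were Flt1 and Cdh5.

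Some immune and glial markers were also called higher with brequinar, beside Itga8, Tbx2, P2ry14 and Anpep. Of 6 T cell genes, 5 were called higher with brequinar over both antibodies, beside 6.91% of all genes called higher. Their median there was 1.33 on the log2 scale. In BRQ+IgG2a against IgG2a 5 were called higher, with a median of 2.04, beside 3.46% of all genes called in either direction. Summed levels of the 6 were 15.6 to 76.1 CPM in BRQ+PD-1, 19.4 to 127 in BRQ+IgG2a, 16.8 to 49.4 in PD-1 and 9.36 to 36.7 in IgG2a tumours. In order of adjusted p for brequinar over both antibodies, Cd4, the T helper cell co-receptor, came first, followed by Cd3g, Cd3e and Cd8a. Cd4 had a log2 fold change of 1.27 ± 0.20 in that contrast (SE, edgeR adjusted p = 0.000336). Of 6 macrophage genes, Adgre1 and Cd68 were called higher in the same contrast, and the 6 summed to 1270 to 1940 CPM in BRQ+PD-1, 820 to 2440 in BRQ+IgG2a, 1110 to 1670 in PD-1 and 928 to 1770 in IgG2a tumours.

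Of 5 Schwann cell genes, Pmp22, a myelin protein also made by other cells, was called higher, at 0.77 ± 0.10 for brequinar over both antibodies (SE, edgeR adjusted p = 5.2e-05). Over all genes 6.91% were called higher in that contrast. The 5 summed to 110 to 157 CPM in BRQ+PD-1, 86.2 to 125 in BRQ+IgG2a, 55.4 to 125 in PD-1 and 68.4 to 126 in IgG2a tumours. Mitf, 1 of 2 melanocyte genes tested, was called higher with brequinar over both antibodies and in BRQ+PD-1 against PD-1, and Nes, 1 of 8 genes of undifferentiated melanoma tested, in BRQ+PD-1 against PD-1; neither was called without the muscle-rich libraries. The part of these cells in the pericyte and smooth muscle values was not tested.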

How the data were processed

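RNA from 24 D4M tumours, 6 per group, was purified on RNeasy columns and made into libraries by Novogene, per the labels' protocols. The deposited table gives raw whole-number counts per Ensembl gene, not normalized, with 1 column per tumour. The submitters' processing notes list HISAT2 2.2.1, StringTie 2.2.1, Trim Galore 0.6.7, MultiQC 1.11 and FastQC 0.11.8 with build GRCm39, and no source used here gives the counting program, its annotation or its strand setting. Other deposited tables were not used here. Symbols were matched by Ensembl ID (52081 of 55414 genes), and exon lengths and overlaps came from a GRCm38 annotation, used for no coordinates of the counts.

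All 24 libraries were fitted together with edgeR 4.0.16 in R 4.3.3 (TMM scaling, filterByExpr by group, robust quasi-likelihood F test, group as the only term, 20 residual degrees of freedom). Benjamini-Hochberg adjustment ran over 16029 genes, and called means an adjusted p under 0.05. The SE was computed as log2 fold change over the root of F. The fit was tested on simulated data. Replicates of a group differed by 9.38 to 222 times the counting noise over 60 pairs, so none was a copy.

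Named genes were the 10 members in every comparison, up to 4 called genes of each list by adjusted p (with none called, the 2 of highest mean CPM) and, for likeness, the 3 genes of highest correlation per member. Members, lists and tests were chosen with earlier results of these data known. Alternatives were RLE factors, library totals alone, no expression filter, no robust dispersion, DESeq2 1.42.0, limma 3.58.1 voom with quality weights, a replicate block, an Acta1 covariate, only the groups compared, no muscle-rich libraries (Acta1 above 1000 CPM), and leaving out 1 library at a time. The contrast of anti-PD-1 against control-antibody groups and its alternatives were added after the data were seen.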

Additional observations from a re-analysis of the deposited data

Results flagged for a closer look

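Within a group of 6 tumours, 11 values of the 60 gene-by-group sets examined lay further from the rest than Dixon's 95% limit allows. For normally distributed values chance gives about 5%, or 1 in 20 groups. The limit was applied to CPM, not log2 CPM, and the chance rate for such values was not measured. Of the 11 values, 7 were in a muscle-rich library. Myh11 was high in replicate 4 of BRQ+IgG2a (7.56 CPM, next 1.79) and replicate 6 of PD-1 (13.2 CPM, next 1.81), both muscle-rich, and in replicate 4 of BRQ+PD-1 (7.65 CPM, next 1.95), which was not. The same 2 muscle-rich tumours stood out for Cnn1, at 1.73 CPM in BRQ+IgG2a (next 0.407) and 1.71 CPM in PD-1 (next 0.338). They also stood out for Notch3, at 20.2 CPM in BRQ+IgG2a (next 10.1) and 23.6 CPM in PD-1 (next 10.3). Actg2 reached 29.4 CPM in replicate 3 of IgG2a (next 9.89), also muscle-rich. Replicate 5 of BRQ+IgG2a, with little Acta1, was highest of its group for Mcam (107 CPM, next 79.6) and Cspg4 (299 CPM, next 156) and lowest for Tbx2 (6.19 CPM, next 9.33). The part of muscle tissue in these values was not tested.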

How the results depend on the processing

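Of the 10 members, 2 were called lower in BRQ+PD-1 against IgG2a. That count was 1 with library totals, no expression filter, voom, the replicate block, the Acta1 covariate or only the groups compared, 0 without the muscle-rich libraries, and 1 to 2 when single libraries were left out. Over all genes the count in this comparison was 627, against 1564 by DESeq2, 1455 by voom, 297 with no filter, 404 without the muscle-rich libraries and 371 with only the groups compared. For BRQ+IgG2a against IgG2a the members called were 0, but 1 with library totals, DESeq2, voom or the Acta1 covariate and 0 to 1 with single libraries left out (Mcam in each case). Voom called 1 member for BRQ+PD-1 against PD-1, 2 for BRQ+PD-1 against BRQ+IgG2a, 1 for the interaction and 1 for anti-PD-1 against control antibody, where DESeq2 also called 1. For brequinar over both antibodies DESeq2 called 1 member, Myl9, and leaving out single libraries called 0 to 1 (Myl9 without replicate 5 of IgG2a or of PD-1).

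Log2 fold changes that turned sign were not called in any setting. For BRQ+PD-1 against IgG2a, voom gave 0.059 for Mcam, 0.23 for Rgs5 and 0.41 for Notch3, the Acta1 covariate 0.19 for Rgs5, 0.25 for Notch3 and -0.018 for Cspg4, the fit without the muscle-rich libraries 0.12 for Rgs5 and 0.18 for Notch3, and the replicate block -0.16 for Myh11. Against PD-1, voom gave 0.25 for Myh11, 0.17 for Rgs5 and 0.32 for Notch3, the covariate 0.32 for Myh11 and 0.060 for Notch3, and the fit without the muscle-rich libraries 0.97 for Myh11, 0.087 for Rgs5 and 0.25 for Notch3. Acta2 turned to 0.25 (voom) and 0.16 (without the muscle-rich libraries) for brequinar alone, and to 0.10 and 0.013 for brequinar over both antibodies. With single libraries left out, BRQ+PD-1 against IgG2a ranged from -0.78 to 0.58 for Myh11, -0.28 to 0.089 for Rgs5 and -0.24 to 0.12 for Notch3, and against PD-1 from -1.36 to 0.97, -0.40 to 0.095 and -0.36 to 0.26 for the same genes. The cause was not tested.

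Same-numbered tumours of different groups correlated at -0.64 to 0.444 in their deviations from the group means. Tumours of different numbers were not compared, so this range cannot decide whether replicate numbers pair the tumours. With the replicate block, 1 member (Myl9) was called in BRQ+PD-1 against IgG2a. Tagln (3 to 23 counts) and Cnn1 (0 to 49 counts) rested on few counts, and neither was called. The level of Tagln is also uncertain because of the genes on the other strand. Among list genes, the call of Actg2 in BRQ+PD-1 against IgG2a was also lost with no filter or the Acta1 covariate, and that of Srf under those, library totals, the replicate block and only the groups compared. Those of Mylk and Pdgfc against PD-1 were lost with only the groups compared, and that of Mylk also with no filter. RLE factors and the non-robust dispersion changed no call of a member.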
